A study of Caenorhabditis elegans with 12 samples.

Results

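The rotenone by age interaction is the difference between 2 differences: rotenone minus DMSO at day 15, minus rotenone minus DMSO at day 5, computed for each microRNA hairpin on the log2 scale. It addresses whether the difference between worms given rotenone and worms given DMSO was of another size at day 15 than at day 5. It uses all 12 small RNA libraries of the series, and 181 of the 250 hairpins in the count table had enough reads to be tested. The worms were hermaphrodites of N2, the standard laboratory wild type of the nematode Caenorhabditis elegans, and each library was made from whole worms. The 4 groups, 3 libraries each, were day 15 rotenone, day 15 DMSO, day 5 rotenone and day 5 DMSO. Rotenone was given at 100 nM for 24 h starting in the last larval stage, L4, and DMSO at 0.1%. The exposure began at L4 in both rotenone groups, so day 15 worms were older and also further from it. Age and time since the exposure cannot be told apart here. The labels do not say whether rotenone worms also received DMSO, from when the days were counted, how long before each age the exposure had ended, or whether replicates came from separate cultures. The p-values therefore measure the spread between these libraries, which may be technical.

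MicroRNAs are short RNA strands, cut from hairpin precursors, that guide Argonaute proteins to messenger RNAs, which are then translated less or degraded. In worms they set the timing of larval development through lin-4 and the let-7 family, and several of them, mir-71 among them, are known to alter lifespan and stress resistance. Rotenone blocks complex I of the mitochondrial electron transport chain. A positive interaction means that rotenone relative to DMSO was higher at day 15 than at day 5. The same number also compares ageing: it is the change of day 15 against day 5 after rotenone, minus that change in DMSO. In whole worms, fewer cells of a type and less RNA per cell cannot be told apart.

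Total counts were 4215830 to 5856949 reads in day 15 rotenone libraries, 4727531 to 5989717 in day 15 DMSO, 8891063 to 11045174 in day 5 rotenone and 8845726 to 10481528 in day 5 DMSO. Levels are given as CPM, counts scaled to a fixed library total, and a count of 3 reads was worth 0.272 to 0.712 CPM by library size. The labels also give the sequencing lane. Lane L006 held 1 library of each day 15 group and 2 of each day 5 group, and lane L007 held the others, so lanes were balanced over treatment within an age. Hairpins enriched in muscle (mir-1), intestine (mir-60), glia (mir-228) and the left ASE taste neuron (lsy-6) were all read in every library. Except where library size is named, CPM were also scaled by TMM, edgeR's correction for composition, and they are relative amounts. A hairpin was called when its Benjamini-Hochberg adjusted p in edgeR's quasi-likelihood test, over the 181 hairpins, was under 0.05.

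Rotenone differences at the 2 ages differed for 12 of the 181 hairpins, 6.63% of those tested. In 9 the interaction was positive (4.97%), namely in mir-71, mir-77 and mir-241, in mir-48 and mir-63, and in mir-75, mir-239a, mir-248 and mir-249. In 3 it was negative (1.66%), namely in mir-250, mir-1018 and mir-1829b. The 9 were 1.25-fold to 1.62-fold lower in rotenone than in DMSO at day 5, and the 3 were 1.20-fold to 1.39-fold higher. At day 15 the same 12 hairpins differed between rotenone and DMSO by -0.07 to 0.09 on the log2 scale, and the 95% intervals of those differences reached from -0.22 to 0.28. None of the 181 hairpins was called for rotenone at day 15, where edgeR's lowest adjusted p was 0.882, and 3 had an unadjusted p under 0.05. DESeq2 and limma-voom also called 0 there, each with 3 at an unadjusted p under 0.05. The interaction itself had an unadjusted p under 0.05 for 45 hairpins.

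**Figure D1:**
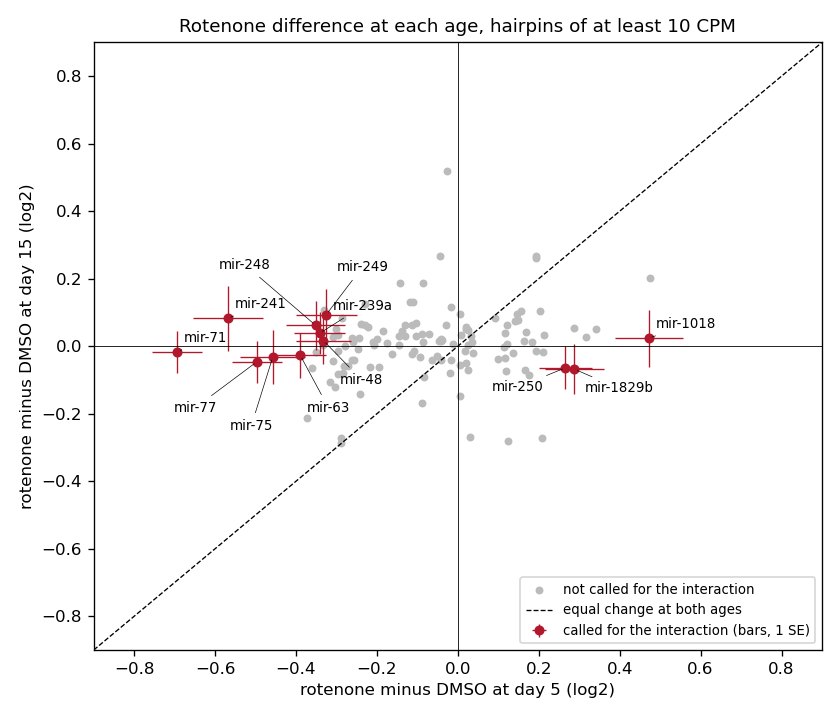
Rotenone minus DMSO in log2 units at day 15 (vertical axis) against the same at day 5 (horizontal axis) for the hairpins that averaged 10 CPM or more by library size. Red points are the 12 hairpins called for the interaction with bars of 1 SE, and the dashed line marks an equal difference at both ages. The 12 lie between -0.07 and 0.09 on the vertical axis and to either side of 0 on the horizontal axis.

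In all 12 called hairpins the 3 rotenone and 3 DMSO libraries of day 5 did not overlap, and in all 12 those of day 15 overlapped. Over the 181 tested hairpins the groups did not overlap for 6.08% at day 15, with rotenone above for 3.87% and below for 2.21%. At day 5 they did not overlap for 39.8%, with rotenone above for 12.2% and below for 27.6%. The day 5 rotenone test on its own called 46 hairpins (25.4%), of which 35 were lower (19.3%) and 11 higher (6.08%) after rotenone. That split depended on the scaling, with 17 lower and 23 higher by library size alone, 14 lower and 29 higher without the 3 most abundant hairpins, and 5 lower and 43 higher with a minimum mean of 10 CPM. The interaction shares the day 5 libraries with that test, so the 12 are not a separate line of evidence for it. Day 15 differed from day 5 for 75.1% of the hairpins after rotenone (37.6% higher and 37.6% lower) and for 80.1% in DMSO (38.1% higher and 42% lower). The called hairpins held 3.33% of all reads, with means over the 12 libraries of 141 to 13410 CPM by library size.

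mir-71, which promotes long life and stress resistance in C. elegans, had the largest interaction among the 12 called hairpins. It lies within an intron of ppfr-1 on the minus strand (I:9379927-9380020, on WBcel235 like all positions here). The other called hairpins lie outside protein-coding genes where no host gene is given below. For most uncalled hairpins the position is not given, and some of them lie within genes. The level of mir-71 was 3223, 3387 and 3338 CPM in day 15 rotenone libraries, 3341, 3288 and 3438 CPM in day 15 DMSO, 6751, 6604 and 6820 CPM in day 5 rotenone, and 10268, 11300 and 11055 CPM in day 5 DMSO. At day 5 all 3 rotenone libraries were below all 3 DMSO libraries, while at day 15 the groups interleaved. The rotenone difference was -0.02 ± 0.06 log2 (SE) at day 15 and -0.69 ± 0.06 at day 5, a 1.62-fold lower level. The interaction was 0.68 ± 0.09 (95% interval 0.50 to 0.86, edgeR adjusted p = 5.02e-06). Read along age, mir-71 was 2.03-fold lower at day 15 than at day 5 after rotenone and 3.24-fold lower in DMSO, and the day 15 levels overlapped, with 3316 ± 84.5 CPM in rotenone and 3356 ± 76.4 CPM in DMSO (SD, n = 3 each).

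mir-241, a let-7 family member that acts with mir-48 and mir-84 at the second larval stage by repressing hbl-1, was the only other hairpin with an interaction above 0.5 log2 among the 12. It lies outside protein-coding genes on the minus strand (V:14366188-14366283). Libraries of day 15 rotenone gave 106, 93.6 and 99.4 CPM and those of day 15 DMSO 101, 92.1 and 90.1 CPM. At day 5 the values were 164, 153 and 136 CPM in rotenone and 223, 245 and 204 CPM in DMSO. Every day 5 rotenone library was thus below every day 5 DMSO library, with overlap at day 15. The rotenone difference was 0.08 ± 0.10 log2 at day 15 and -0.57 ± 0.09 at day 5, and the interaction was 0.65 ± 0.13 (95% interval 0.39 to 0.91, edgeR adjusted p = 0.00159). With age it was 1.51-fold lower after rotenone and 2.37-fold lower in DMSO.

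mir-63 and mir-248 were likewise highest in day 5 DMSO. mir-63, of the miR-63 family, lies outside protein-coding genes on the minus strand (X:17598765-17598868). It had 407, 387 and 440 CPM in day 15 rotenone libraries, 423, 419 and 415 CPM in day 15 DMSO, 641, 641 and 633 CPM in day 5 rotenone, and 801, 829 and 880 CPM in day 5 DMSO. Its change with age was -0.63 ± 0.07 log2 after rotenone (95% interval -0.77 to -0.50) and more negative in DMSO (95% interval -1.13 to -0.86), and the interaction was 0.36 ± 0.09 (edgeR adjusted p = 0.0152). The mir-248 hairpin (X:2262373-2262470, minus strand) had 741, 648 and 834 CPM in day 15 rotenone, 701, 730 and 698 CPM in day 15 DMSO, 794, 766 and 747 CPM in day 5 rotenone, and 956, 983 and 1005 CPM in day 5 DMSO. Its change with age was -0.05 ± 0.07 log2 after rotenone (adjusted p = 0.498, edgeR) and -0.47 ± 0.07 in DMSO (edgeR adjusted p = 1.71e-06). The interaction of 0.41 ± 0.10 (edgeR adjusted p = 0.0152) tests the difference between those 2 changes. Without day 15 rotenone replicate 3 the change of mir-248 with age after rotenone was also called, at -0.18 log2 (edgeR adjusted p = 0.0168). Without day 15 rotenone replicate 3, the highest library of both hairpins at day 15, edgeR's adjusted p was 0.0610 for mir-63 and 0.0644 for mir-248. The mir-63 call was also lost without day 15 DMSO replicate 3 (adjusted p = 0.0535, edgeR), and the mir-248 call without day 15 DMSO replicate 1 (0.0555) or 3 (0.0634).

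**Figure D2:**
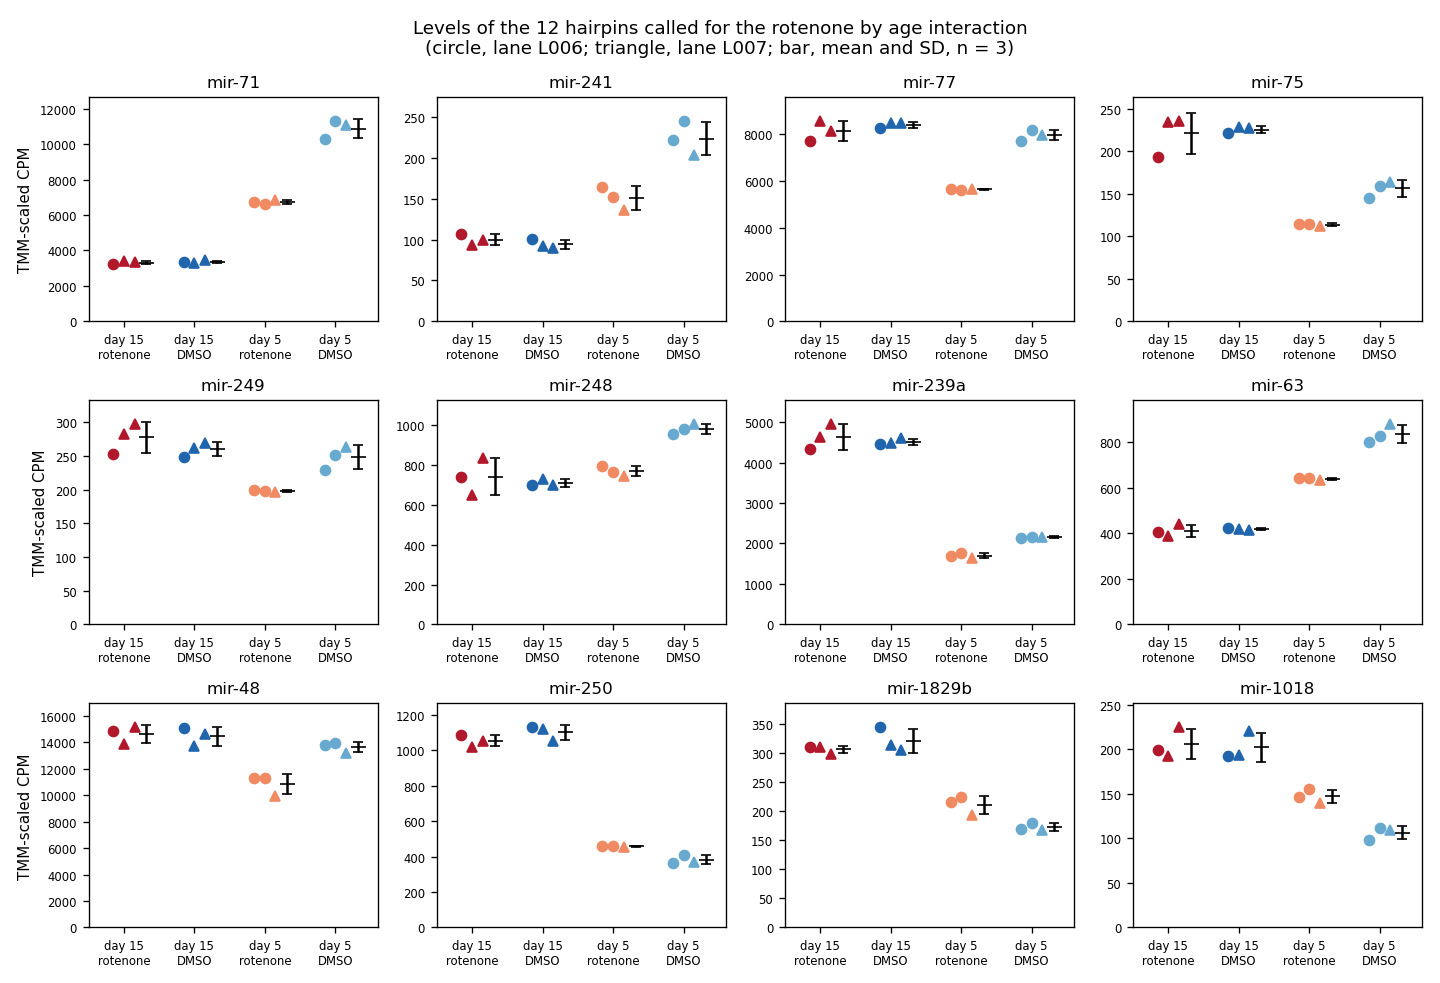
TMM-scaled CPM of the 12 called hairpins in each of the 12 libraries, with bars for the mean and SD of each group (n = 3); circles are lane L006 and triangles lane L007. In every panel the 2 day 5 groups are apart and the 2 day 15 groups overlap, as for mir-71 with 3316 CPM in day 15 rotenone, 3356 CPM in day 15 DMSO, 6725 CPM in day 5 rotenone and 10874 CPM in day 5 DMSO.

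In mir-77, mir-249 and mir-48 the level at day 5 was low in rotenone worms alone, and the other 3 groups lay close together. mir-77 (II:12519268-12519367, plus strand) had 7714, 8552 and 8115 CPM in day 15 rotenone libraries, 8246, 8451 and 8484 CPM in day 15 DMSO, 5632, 5631 and 5648 CPM in day 5 rotenone, and 7724, 8185 and 7962 CPM in day 5 DMSO. The rotenone libraries of day 5 were the lowest 3 of the 12. The rotenone difference was -0.05 ± 0.06 log2 at day 15 and -0.50 ± 0.06 at day 5, with an interaction of 0.45 ± 0.09 (95% interval 0.27 to 0.63, edgeR adjusted p = 0.00159). With age it rose 1.44-fold after rotenone (0.53 ± 0.06 log2), against 0.08 ± 0.06 log2 in DMSO (adjusted p = 0.253, edgeR).

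mir-48, the most abundant of the 12 and a let-7 family member (V:14364412-14364509, minus strand), gave 14867, 13910 and 15157 CPM in day 15 rotenone, 15085, 13700 and 14640 CPM in day 15 DMSO, 11301, 11299 and 9973 CPM in day 5 rotenone, and 13820, 13972 and 13216 CPM in day 5 DMSO. It rose 1.35-fold with age after rotenone, against 0.08 ± 0.07 log2 in DMSO (edgeR adjusted p = 0.266), and its interaction was 0.35 ± 0.10 (edgeR adjusted p = 0.0209). mir-249 (X:3006440-3006536, minus strand) had 252, 283 and 297 CPM in day 15 rotenone, 248, 262 and 269 CPM in day 15 DMSO, 199, 197 and 196 CPM in day 5 rotenone, and 228, 252 and 263 CPM in day 5 DMSO. The day 5 rotenone libraries of mir-249 were again the lowest 3 of the 12. It rose 1.40-fold with age after rotenone, against 0.07 ± 0.08 log2 in DMSO (edgeR adjusted p = 0.401), and its interaction was 0.42 ± 0.11 (edgeR adjusted p = 0.0152). The changes of mir-48 and mir-249 with age in DMSO, and that of mir-77, passed the threshold when counts were scaled by library size alone (0.16, 0.15 and 0.15 log2, with edgeR adjusted p of 0.0466, 0.0475 and 0.0215). Leaving out single libraries ended the mir-249 call without day 15 rotenone replicate 3 (edgeR adjusted p = 0.0642) or day 15 DMSO replicate 1 (0.0555). The mir-48 call ended without any of 6 libraries (day 15 rotenone replicate 1 or 3, day 15 DMSO replicate 2 or 3, day 5 rotenone replicate 3, day 5 DMSO replicate 2), with an edgeR adjusted p of at most 0.108.

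mir-239a and mir-75 rose with age in both treatments and rose more after rotenone. mir-239a (X:11792445-11792542, plus strand), whose deletion together with mir-239b lengthens life in C. elegans, gave 4322, 4619 and 4949 CPM in day 15 rotenone libraries and 4448, 4473 and 4605 CPM in day 15 DMSO. Its day 5 values were 1692, 1759 and 1653 CPM in rotenone and 2131, 2165 and 2172 CPM in DMSO. That is a 2.72-fold rise after rotenone and a 2.09-fold rise in DMSO, and the interaction was 0.38 ± 0.09 (edgeR adjusted p = 0.00908). mir-75 (X:2372453-2372549, plus strand) had 194, 234 and 236 CPM in day 15 rotenone, 222, 228 and 227 CPM in day 15 DMSO, 115, 114 and 112 CPM in day 5 rotenone, and 145, 159 and 164 CPM in day 5 DMSO. It rose 1.94-fold after rotenone and 1.44-fold in DMSO, with an interaction of 0.43 ± 0.11 (edgeR adjusted p = 0.0188). The call of mir-75 was lost without any of 5 libraries (day 15 rotenone replicate 2 or 3, day 15 DMSO replicate 1 or 3, day 5 rotenone replicate 2), with edgeR adjusted p of at most 0.0783. That of mir-239a held without each of the 12 libraries.

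In mir-1018, mir-250 and mir-1829b the order was turned: they rose with age in both treatments and rose less after rotenone, and at day 5 rotenone worms were above DMSO worms. mir-1018 (X:1879458-1879513, plus strand) had 199, 192 and 225 CPM in day 15 rotenone, 192, 194 and 221 CPM in day 15 DMSO, 147, 155 and 140 CPM in day 5 rotenone, and 97.6, 112 and 109 CPM in day 5 DMSO. The rotenone difference was 0.02 ± 0.08 log2 at day 15 and 0.47 ± 0.08 at day 5, and the interaction was -0.45 ± 0.12 (95% interval -0.69 to -0.21, edgeR adjusted p = 0.0183). It rose 1.39-fold with age after rotenone and 1.90-fold in DMSO. The mir-1018 call was lost without day 5 rotenone replicate 2 (edgeR adjusted p = 0.0577).

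mir-250, a miR-2 family member (V:11769917-11770015, minus strand), gave 1084, 1021 and 1056 CPM in day 15 rotenone, 1131, 1121 and 1052 CPM in day 15 DMSO, 458, 462 and 456 CPM in day 5 rotenone, and 367, 410 and 369 CPM in day 5 DMSO. It rose 2.30-fold after rotenone and 2.89-fold in DMSO, with an interaction of -0.33 ± 0.09 (edgeR adjusted p = 0.0209). mir-1829b, in an intron of F20D1.3 (X:14977119-14977178, plus strand), had 310, 309 and 299 CPM in day 15 rotenone, 344, 313 and 304 CPM in day 15 DMSO, 215, 224 and 194 CPM in day 5 rotenone, and 170, 180 and 168 CPM in day 5 DMSO. Its rise was 1.45-fold after rotenone and 1.86-fold in DMSO, and the interaction was -0.36 ± 0.10 (edgeR adjusted p = 0.0328). Without day 5 rotenone replicate 2 the edgeR adjusted p was 0.0544 for mir-250 and 0.103 for mir-1829b, and without day 5 rotenone replicate 1 it was 0.0747 for mir-1829b.

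**Figure D3:**
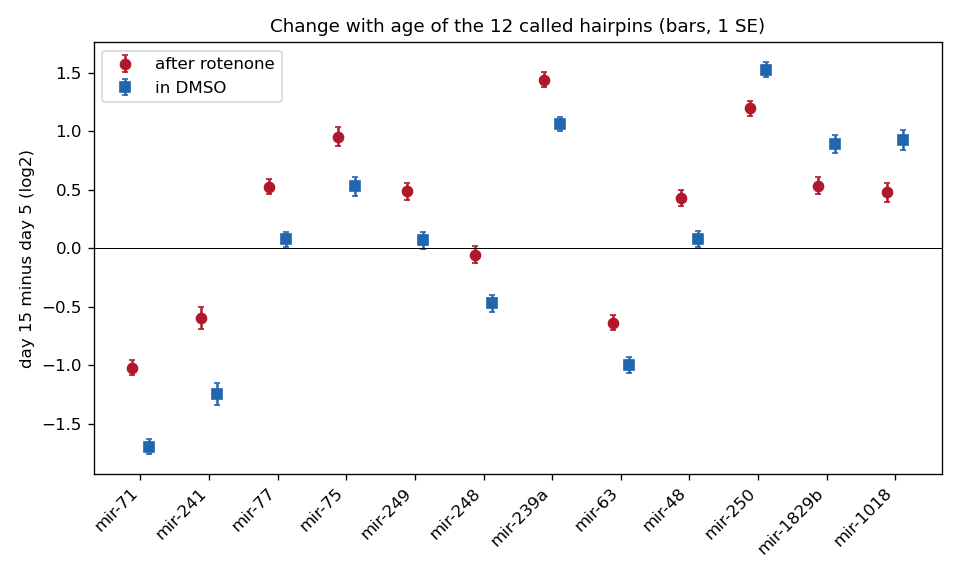
Log2 change of day 15 against day 5 after rotenone (red circles) and in DMSO (blue squares) for the 12 called hairpins, with bars of 1 SE. mir-71 changed by -1.02 after rotenone and -1.70 in DMSO, and mir-1018 by 0.48 after rotenone and 0.93 in DMSO.

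The 9 hairpins nearest the threshold from outside, the last 5 of them tied, had an edgeR adjusted p of 0.0504 to 0.0741. mir-238, a relative of mir-239a that is needed for normal lifespan, had an interaction of 0.34 ± 0.11 with an edgeR adjusted p of 0.0504. Its levels were 10937, 11490 and 11207 CPM in day 15 rotenone, 11937, 11233 and 10348 CPM in day 15 DMSO, 9719, 9905 and 9306 CPM in day 5 rotenone, and 11717, 13750 and 11005 CPM in day 5 DMSO. Among low hairpins, mir-2220 had an interaction of -0.97 ± 0.31 (edgeR adjusted p = 0.0514), from 9.21, 9.64 and 9.02 CPM in day 15 rotenone, 8.34, 8.01 and 9.50 CPM in day 15 DMSO, 4.95, 6.54 and 5.87 CPM in day 5 rotenone, and 1.79, 2.60 and 3.93 CPM in day 5 DMSO. Its day 5 groups did not overlap, on 19 to 59 reads per library. mir-2220 was called under 6 of the 7 other settings of scaling, filter and tool that kept it, all but RLE, and with the sequencing lane as a term (edgeR adjusted p = 0.0244). The next 6 in order were mir-70 with 0.33 (adjusted p = 0.0514), mir-47 with 0.28 (0.0605), and mir-80 with 0.33, mir-84 with 0.28, mir-83 with 0.35 and lin-4 with 0.37, these 4 with an edgeR adjusted p of 0.0741. The fifth at 0.0741 was mir-231, with -0.29 ± 0.10 from 196, 193 and 201 CPM in day 15 rotenone, 193, 192 and 184 CPM in day 15 DMSO, 246, 252 and 250 CPM in day 5 rotenone, and 181, 201 and 209 CPM in day 5 DMSO. It was called under 7 of the 8 other settings, all but limma-voom, and with the lane term (edgeR adjusted p = 0.0271).

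The let-7 family and the heterochronic hairpins, which time the larval stages, had positive interactions in every tested member with TMM, while mir-793 of the let-7 family and mir-237 turned negative when only hairpins averaging 10 CPM or more were kept. Of the 7 let-7 family hairpins 2 were called, both positive, and the median interaction was 0.28, against a median of 0.06 and 12 calls over all 181. Over 6 settings of scaling and filter the family had 1 or 2 calls and a median of 0.08 to 0.28. Values ran from 0.16 for mir-793 to 0.65 for mir-241. let-7 itself had 420, 365 and 362 CPM in day 15 rotenone, 473, 355 and 371 CPM in day 15 DMSO, 1577, 1567 and 1330 CPM in day 5 rotenone, and 1962, 1919 and 1862 CPM in day 5 DMSO, an interaction of 0.30 ± 0.12 that was not called (edgeR adjusted p = 0.136). lin-4, founder of the heterochronic pathway and repressor of lin-14, had 0.37 ± 0.13. The 6 heterochronic hairpins (lin-4, mir-237 and 4 of the let-7 family) had a median of 0.32 with 2 calls, again mir-48 and mir-241. As a share of reads by library size the let-7 family made up 2.15% in day 15 rotenone, 2.16% in day 15 DMSO, 1.54% in day 5 rotenone and 1.82% in day 5 DMSO.

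Hairpins tied to lifespan and stress in C. elegans had 2 calls among 11 tested, mir-71 and mir-239a, both positive, with a median of 0.33, against 6.63% called over all hairpins. That share is low for abundant hairpins, since all 12 calls were among the 95 hairpins that averaged 100 CPM or more by library size. In 10 of the 11 the value was positive with TMM, as in 107 of all 181, and in at least 6 under the other scalings and filters, and it ran from -0.06 for mir-228 to 0.68 for mir-71. The miR-238 family had 1 call of 3 and a median of 0.34, from 0.17 for mir-239b, which was below 0 with the 10 CPM minimum, to 0.38 for mir-239a. The miR-63 family had 1 call of 5, mir-63, and a median of 0.21, with its lowest value of 0.09 in mir-229, and it had 0 calls and 3 positive members at the lowest over the scalings and filters. These lists overlap in members and were chosen with results of these libraries known, so their counts are descriptions.

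The miR-35 family, which is made in oocytes and embryos and is needed for embryonic development, had 8 tested members with negative values and 0 calls. All 8 were negative under each of the 6 settings of scaling and filter, and the calls ranged from 0 to 5 between them. With single libraries left out up to 2 turned positive, as without day 5 DMSO replicate 1. With TMM the median was -0.14, from -0.29 ± 0.13 for mir-41 to -0.05 for mir-38. mir-41 had 140, 181 and 158 CPM in day 15 rotenone, 147, 164 and 157 CPM in day 15 DMSO, 62.7, 62.9 and 67.4 CPM in day 5 rotenone, and 50.9, 54.9 and 49.1 CPM in day 5 DMSO, and its edgeR adjusted p was 0.166. Summed over the family the share of reads was 16.6% ± 0.621 in day 15 rotenone, 16.3% ± 0.679 in day 15 DMSO, 10.4% ± 0.197 in day 5 rotenone and 8.70% ± 0.604 in day 5 DMSO (SD, n = 3 each). The part of embryos held in the worms in the called hairpins was not tested.

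Most other families had no call. The miR-58 family, relatives of the fly microRNA bantam, had 0 calls of 5 and a median of 0.18 with TMM (-0.07 without the 3 most abundant hairpins, among them 2 of this family), from -0.80 for mir-58b, with 2 to 26 reads per library, to 0.33 for mir-80. It held 30.7% of the reads in day 15 rotenone, 30.3% in day 15 DMSO, 33.9% in day 5 rotenone and 36.4% in day 5 DMSO. The miR-51 family had a median of 0.00 over 6 members and the miR-72 family of -0.03 over 3, with 0 calls in each. The miR-44 family had 0 calls of 4 and a median of -0.07, from -0.23 for mir-61 to 0.40 for mir-247, and the miR-50 family had 0 calls of 3 and a median of 0.02. In the miR-2 family 1 of 4 was called, mir-250, with a family median of -0.07. Under other scalings and filters the miR-51, miR-72, miR-44, miR-50 and miR-2 families had at most 2 calls each, all negative. Of 3 mirtrons, microRNAs spliced out as whole introns, mir-1018 was called, though the annotation used here places it outside protein-coding genes. Among 7 tissue markers 0 were called, and values ran from -0.24 ± 0.20 for lsy-6 of neurons to 0.31 ± 0.13 for mir-1 of muscle.

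**Figure D4:**
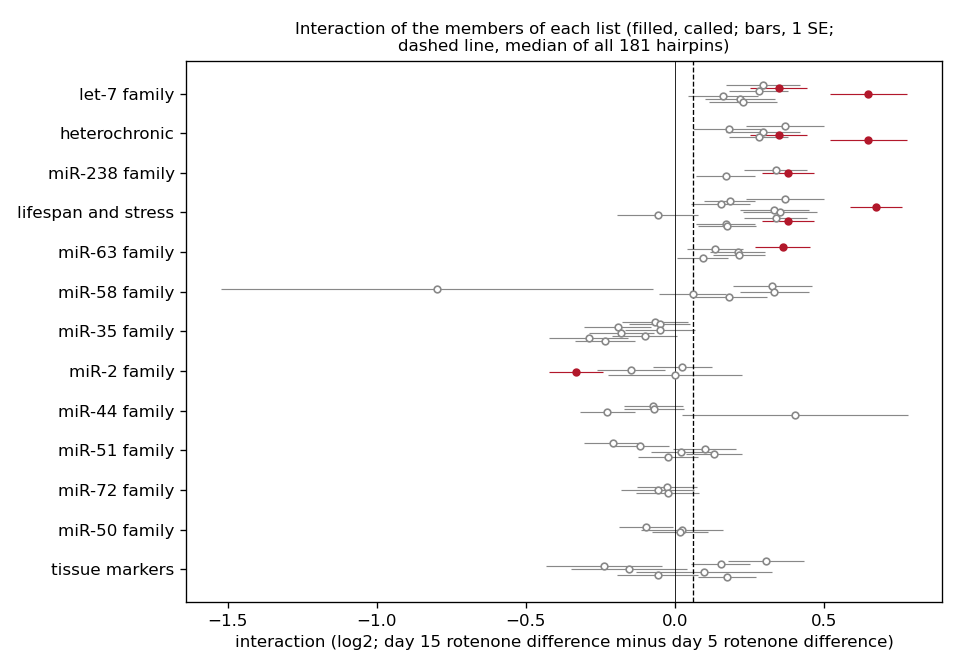
Interaction in log2 units of each tested member of 13 lists (bars, 1 SE; filled red points called, open points not called), with a dashed line at the median of all 181 hairpins, 0.06. With TMM, as drawn, let-7 family values run from 0.16 to 0.65 and miR-35 family values from -0.29 to -0.05, and 1 let-7 family value is below 0 with a minimum mean of 10 CPM.

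Among the 5 most abundant hairpins, none was called for the interaction. The values were 0.18 for mir-82, -0.03 for mir-72, 0.33 for mir-58a, -0.11 for mir-57 and 0.33 for mir-80, and their edgeR adjusted p ranged from 0.0741 to 0.903. Some hairpins with a rotenone difference of at least 0.3 log2 called at day 5 were not called for the interaction either. Besides those already given these were mir-4937 with 0.79, mir-359 with 0.35, mir-5592-2 with 0.21, mir-792 with -0.65, mir-237 with 0.18 and mir-1020 with 0.51. With the lane term mir-359 (0.0195) and mir-4937 (0.0443) were called by edgeR's adjusted p, and the other 4 were not. A p above the threshold does not show that the difference was the same at both ages.

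Precision depended on abundance. All 12 calls were among the 95 hairpins that averaged 100 CPM or more by library size, whose median SE of the interaction was 0.11 log2. Of the 86 hairpins under 100 CPM, 0 were called by edgeR and 8 had an unadjusted p under 0.05, with a median SE of 0.30. The interaction joins the errors of 4 groups, and its median SE was 0.14 over all 181, against 0.10 for rotenone at day 15 and 0.09 for rotenone at day 5. The 95% interval lay within 0.5 log2 of 0 for 76 hairpins and reached beyond 1 log2 for 35. In simulated counts for the 181 hairpins the interaction test found 30.7% of 1.25-fold changes, 68.9% of 1.5-fold and 86.7% of 2-fold ones, and it called 1.34% of the hairpins left unchanged. Each draw changed 20 hairpins at each of these folds and held no lane effect. With more hairpins changed the adjusted threshold is easier to pass, so these shares may be too high for data with 12 calls.

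In the genome 7 of the 12 lie on chromosome X, where 60 hairpins were tested, 3 of 16 on V, 1 of 20 on I and 1 of 34 on II, with 0 of 19 on III and 0 of 30 on IV. Over all 181 tested hairpins 12 were called (6.63%), and a difference between chromosomes was not tested. On V, mir-48 and mir-241 lie 1678 bases apart on the same strand, and both were called. mir-250 lies 44 bases from mir-61, which was not called (-0.23, edgeR adjusted p = 0.132). mir-75 lies near mir-73 (-0.06) and mir-74 (-0.02), and mir-71 near mir-2 (0.03, below 0 under most other scalings), and these 3 neighbours within 10 kb were not called. Around mir-1018 there are 10 hairpins within 10 kb on the same strand, of which 6 were tested. Their interactions were -0.97 for mir-2220, -0.71 for mir-4809, -0.69 for mir-4808, -0.40 for mir-4923b, -0.27 for mir-4807 and -0.23 for mir-4810a, and 0 of the 6 were called. Their SE ran from 0.26 for mir-4807 to 0.66 for mir-4808, which had 3 to 19 reads per library. Over all 181 hairpins 74 were negative. How reads that match more than 1 hairpin were divided is not stated in the sources, so hairpins of like sequence are uncertain.

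Of the single settings that kept all libraries and all tested hairpins, the sequencing lane moved the number of calls most. With the lane as a term, edgeR called 29 hairpins, of which 24 were positive and 5 negative. They held all 12 hairpins called without the term, whose adjusted p then lay between 4.32e-07 and 0.00553, and 17 more. The 10 with the lowest adjusted p of these were mir-70 (0.00952), mir-80 (0.0101), mir-238 (0.0120), mir-84 and let-7 (0.0149 each), mir-59 (0.0150), mir-58a (0.0155), mir-85 (0.0181), mir-359 (0.0195) and mir-47 (0.0197). With the lane in the model 4 of the 7 let-7 family hairpins and 5 of the 6 heterochronic hairpins were called, against 29 of all 181. These 2 lists share 4 members and were chosen with results of these libraries known, so the counts are descriptions. Within lane L006, with 1 library of each day 15 group and 2 of each day 5 group, the 9 positive calls had interactions of 0.28 to 0.70 and the 3 negative ones of -0.42 to -0.24. A group of 1 library is assumed there to vary like the others of its lane. Within lane L007 they were 0.39 to 0.64 and -0.43 to -0.28, where the test called 0 hairpins with 19 at an unadjusted p under 0.05. Both lanes contain libraries from which the 12 were called.

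The scaling of counts shifted all interactions together. The median of the 181 hairpins was 0.06 with TMM, 0.02 with DESeq2-type (RLE) size factors, -0.03 with library size alone, -0.04 without the filter on low counts, -0.07 without the 3 most abundant hairpins and -0.11 with a minimum mean of 10 CPM. Calls split into 9 positive and 3 negative with TMM, 4 and 7 with library size alone, 3 and 5 without the filter on low counts, 3 and 10 without the 3 most abundant hairpins, and 3 and 19 with the 10 CPM minimum. None of the 12 changed the sign of its interaction or of its day 5 rotenone difference under these settings. The median day 5 difference of all hairpins was -0.04 with TMM and 0.12 with the 10 CPM minimum, where the day 5 differences of mir-239a, mir-248, mir-249 and mir-48 were no longer called. The calls of mir-71, mir-77 and mir-241 and of mir-250, mir-1018 and mir-1829b held under all 8 other settings of scaling, filter, tool and hairpins kept. mir-239a was lost under 3 of the 8: without the filter on low counts, with the 10 CPM minimum and without the 3 most abundant hairpins. mir-248, mir-63, mir-249 and mir-75 were lost under those 3 and with library size alone, and mir-48 under those 4 and with RLE. Relative to the median of all hairpins the interactions with TMM were 0.61 for mir-71, 0.59 for mir-241 and 0.39 for mir-77, and -0.51 for mir-1018, -0.42 for mir-1829b and -0.39 for mir-250. They were 0.29 to 0.36 for the other 6.

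**Figure D5:**
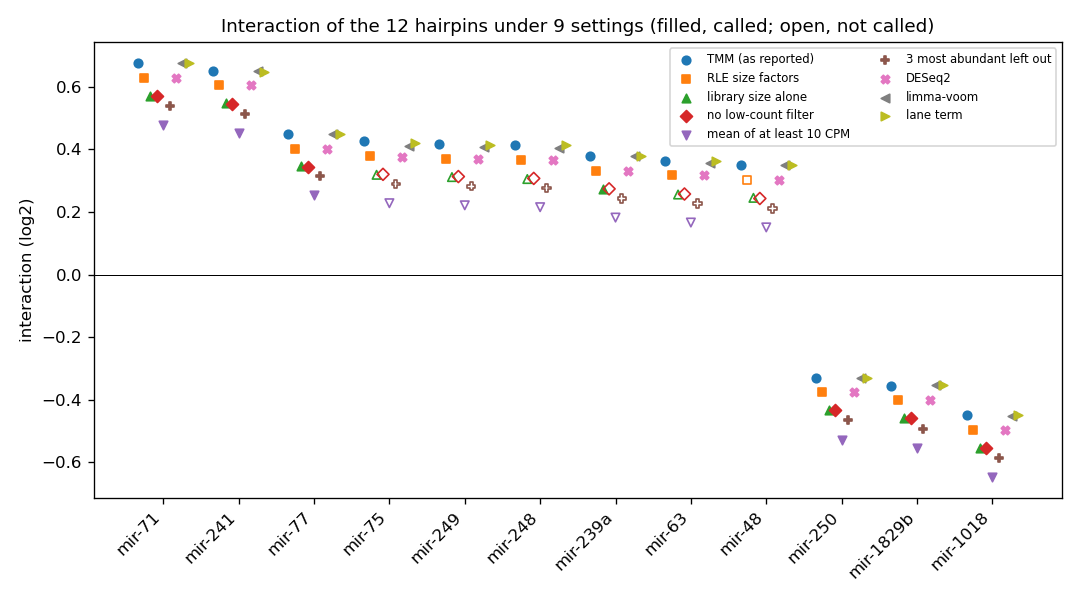
Interaction in log2 units of the 12 called hairpins under 9 settings of scaling, filter, tool and lane (filled symbols called, open symbols not called at an adjusted p under 0.05). Values for mir-71 lie between 0.48 and 0.68, and the 3 negative hairpins stay below 0 under each of the 9 settings.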

How the data were processed

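The deposited values are raw counts in whole numbers, 1 column for each library and 1 line for each hairpin, per the file headers and values, and they carry no normalization. A TruSeq small RNA kit was used, per the labels' protocols. Per the submitters' processing notes the tools included SAMtools 1.3.1-9, BWA 0.7.12-r1039, Trimmomatic 0.36 and bcl2fastq 1.8.4. Each precursor's 2 arms share 1 count, and near-identical copies are uncertain. Build, hairpin reference and treatment of multiply matching reads were not given in the sources used here.

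Groups and lanes came from the labels, and replicate numbers from the order of the columns within each group. edgeR 4.0.16 (R 4.3.3) was run with TMM scaling and filterByExpr (minimum count 10), which kept 181 of 250 hairpins. The other 69 held 0.00172% of the reads. A model of 4 group means over 12 libraries had 8 residual degrees of freedom. The interaction and its 4 simple contrasts were tested by the quasi-likelihood F test with Benjamini-Hochberg adjustment. SE is the log2 difference divided by the square root of F. The common biological coefficient of variation was 6.88%. Fold changes are fitted. Intervals are at 95% and cover counting error and library spread only. The worth of 3 reads is a conversion by library size alone, and the minimum mean of 10 CPM also uses library size. The test was checked on simulated counts in 20 draws. Alternatives used DESeq2 1.42.0, limma-voom 3.58.1, other scalings and filters, lane terms and libraries left out.

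Positions came from an Ensembl annotation of WBcel235 matched by name for 247 of 250 hairpins, and no authors' coordinates were used. The hairpins named are all calls, the 8 nearest the threshold, list extremes, the 5 most abundant, up to 10 gained with the lane term, neighbours of calls within 10 kb, and day 5 calls of at least 0.3 log2. The contrast, lists and members were chosen with earlier results of these data known.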

Additional observations from a re-analysis of the deposited data

Results flagged for a closer look

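The rotenone difference was not the same at the 2 ages, by the test of the interaction itself, for 12 hairpins. On the log2 scale, day 15 minus day 5, the values were 0.68 for mir-71, 0.65 for mir-241, 0.45 for mir-77, 0.43 for mir-75, 0.42 for mir-249, 0.41 for mir-248, 0.38 for mir-239a, 0.36 for mir-63 and 0.35 for mir-48. They were -0.45 for mir-1018, -0.36 for mir-1829b and -0.33 for mir-250. The calls of mir-71, mir-77 and mir-241 held under all 20 other settings of scaling, filter, tool, hairpins kept and single libraries left out. The 20 do not include the lane term or the runs on a single lane, which are given below. Each of the others was lost under at least 1 of the 20, with 9 for mir-75 and 11 for mir-48. Each group held 3 libraries, which is too few to test single libraries for standing apart.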

How the results depend on the processing

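No paired analysis was possible because the labels carry no replicate numbers. Those used here only follow the order of the libraries within each group in the deposited counts. The count of interaction calls, 12 with TMM, was 22 with a minimum mean of 10 CPM, 29 with the lane term, 38 in lane L006 alone and 0 in lane L007 alone. It was 8 to 19 with single libraries left out: 8 without day 15 rotenone replicate 3 or day 5 rotenone replicate 2, and 19 without day 5 DMSO replicate 3. RLE gave 12, library size alone 11, no filter 8, DESeq2 18 and limma-voom 15. Alternatives chosen after seeing the data put the lane term with library size (20 calls), with RLE (26), without the 3 most abundant hairpins (15) and with single libraries left out (15 to 36). Of the last, those furthest from the 12 calls without a lane term were as follows. The count was 24, 36 and 27 without day 15 rotenone replicate 1, 2 and 3, and 23 and 19 without day 15 DMSO replicate 1 and 2. It was 21 and 20 without day 5 rotenone replicate 2 and 3, and 29, 29 and 20 without day 5 DMSO replicate 1, 2 and 3. Against the 29 calls with the lane term and all libraries, the lowest count was 15, without day 5 rotenone replicate 1. Within a lane, rotenone at day 15 had 3 calls in L006 and rotenone at day 5 had 1 in L007. Each of these sets 1 library against 1, with the spread taken from the other groups of the lane, and is no like test to the 0 and 46 calls with 3 against 3. Of the hairpins given an interaction value here, 13 turned sign under at least 1 setting, each uncalled where it turned. With the 10 CPM minimum these were mir-82 (-0.015), mir-237 (-0.016), mir-793 (-0.037), mir-239b (-0.025), mir-229 (-0.10) and mir-2 (-0.17). Both mir-229 and mir-2 also turned with library size alone (-0.012 and -0.080), no filter (-0.011 and -0.078), the 3 most abundant left out (-0.041 and -0.11), and the lane term with library size (-0.011 and -0.082) or without those 3 (-0.041 and -0.11). mir-2 turned further with RLE and DESeq2 (-0.022 each), without mir-45 and mir-5592-2 (-0.016) and with the lane term and RLE (-0.023). In lane L006 alone mir-72 (0.0021), mir-1020 (-0.079), mir-228 (0.028) and mir-74 (0.062) turned, and in lane L007 alone mir-2 (-0.077) and mir-73 (0.086). With single libraries left out the ranges crossed 0 for mir-72 (-0.11 to 0.0032), mir-38 (-0.21 to 0.013), mir-228 (-0.17 to 0.019), mir-2 (-0.074 to 0.089), mir-73 (-0.23 to 0.021) and mir-74 (-0.11 to 0.029). With the lane term as well, mir-2 turned without day 15 rotenone replicate 1 (-0.011), 2 (-0.011) or 3 (-0.0034), day 15 DMSO replicate 3 (-0.043) or day 5 DMSO replicate 2 (-0.079). Likewise mir-38 (0.036), mir-73 (0.035) and mir-74 (0.013) turned without day 15 rotenone replicate 2, mir-4808 (0.16) without day 15 DMSO replicate 1, mir-74 without day 15 DMSO replicate 2 (0.016) or day 5 DMSO replicate 1 (0.015), and mir-72 without day 5 rotenone replicate 2 (0.0013). The cause was not tested. Depth limits the low hairpins, since those under 100 CPM had a median SE of 0.30 log2.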

Other observations

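The largest interaction by size among the 181 hairpins was that of mir-4806, in an intron of ras-1 on the same strand, at 2.13 ± 0.92 log2, which was not called (edgeR adjusted p = 0.136). It rested on 5, 6 and 1 reads in day 15 rotenone libraries, 1, 1 and 0 in day 15 DMSO, 23, 23 and 19 in day 5 rotenone and 17, 11 and 15 in day 5 DMSO. It is named here after its value was seen.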
